A study of Homo sapiens with 9 samples.

Results

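The genes described here are 41 interferon-stimulated and RNA-sensing genes in Hep3B, a human hepatocellular carcinoma line. They were chosen by gene symbol, and each gene was read from its brightest probe set that names that gene alone. Of the 41 genes, 39 were measured, among 18417 genes in all. GBP1 had only a probe set that it shares with other guanylate-binding protein genes, and STAT2 is not analysed here. The 39 were 1 interferon gene, 11 sensors of RNA, 5 adaptor and transcription factor genes, 3 genes of the ISG15 system and 19 effectors. The question was whether the transfected siRNAs set off innate sensing of RNA.

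Total RNA was measured on 9 Affymetrix gene arrays, 3 for each of 3 groups. The groups were cells transfected with an siRNA specific for YAP, cells transfected with a nonsense siRNA, and untreated cells. A small interfering RNA (siRNA) lowers the transcript it matches, and YAP is the coactivator that the Hippo pathway restrains. All cells had been grown in full medium for 24 h, and the transfected cells were kept for another 24 h after Oligofectamine, a lipid carrier, had brought in the siRNA. Untreated cells received neither siRNA nor, as far as the labels state, the carrier, so that siRNA and carrier cannot be told apart when transfected cells are set against them. For untreated cells the labels give only the 24 h of growth, so that time in culture may also differ between them and transfected cells. The labels give no sequence, dose or number of different siRNAs. Whether the 3 samples of each group were separate cultures is not stated, and each test therefore measures only the spread between these samples. All comparisons use the same arrays: both comparisons with untreated cells share the untreated arrays, and both with nonsense siRNA share those.

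Cells read foreign RNA with sensors such as RIG-I and MDA5 in the cytosol and Toll-like receptors in endosomes. Through the adaptor MAVS or through endosomal adaptors these switch on IRF3 and IRF7, which induce the gene for interferon beta. Secreted interferon then acts through its receptor, the kinases JAK1 and TYK2 and a factor complex that holds IRF9, which binds interferon-stimulated response elements and induces genes such as IFIT1, MX1, OAS1 and ISG15. Several sensors are themselves induced this way. Duplex RNA brought in with lipid is known to engage these routes in some cell types, depending on its sequence, length and chemistry.

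The core of the interferon-stimulated response element, GAAANNGAAA or on the other strand TTTCNNTTTC, was searched on both strands in RefSeq promoter windows (GRCh38.p14, 250 bases before to 50 bases after the transcript start), with overlapping matches counted. A window was supplied for 31 of the 41 genes, and 21 of these held at least 1 core (67.7%), against 4.38% of all 27305 genes with a window and 2 of 19 genes that mark other organs. The 6 stretches below are printed in the direction of the gene, with the cores in capitals. They come from genes described below whose window held a core, and not every such gene is shown.
IFIT1, chr10:89392492-89392544, plus strand: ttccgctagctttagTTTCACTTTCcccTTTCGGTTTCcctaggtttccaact
ISG15, chr1:1013369-1013414, plus strand: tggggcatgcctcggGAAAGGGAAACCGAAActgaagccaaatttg
SAMD9, chr7:93118091-93118130, minus strand: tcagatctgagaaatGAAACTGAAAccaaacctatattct
IFIH1, chr2:162318813-162318858, minus strand: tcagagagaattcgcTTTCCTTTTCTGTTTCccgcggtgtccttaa
IFI6, chr1:27672261-27672322, minus strand: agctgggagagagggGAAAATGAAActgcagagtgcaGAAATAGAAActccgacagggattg
CXCL10, chr4:76023694-76023733, minus strand: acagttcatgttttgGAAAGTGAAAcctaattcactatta
The IFIT1 stretch holds 2 cores on the strand opposite to the gene, 116 to 94 bases before the start. The 2 cores of ISG15 overlap, 113 to 98 bases before its start. The 1 core of SAMD9 lies 136 to 127 bases before its start and that of CXCL10 221 to 212 bases before its start. The windows of RIGI, OAS1, IFI35, IRF9, MAVS and IFNB1 held no such core. That of EIF2AK2 held 1 core, which is not printed. No window was supplied for MX2, USP18, IRF3 and GBP2, among others. A match describes letters in these windows and is not evidence of binding.

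The arrays were alike as a whole. Pearson's r between arrays, across genes, was 0.988 to 0.997, and array medians differed by at most 0.05 on the log2 scale. YAP1, the siRNA's target, had log2 signals of 7.54, 7.52 and 7.48 after YAP siRNA, against 8.66, 8.75 and 8.68 after nonsense siRNA and 8.78, 8.62 and 8.69 in untreated cells. It fell by 1.18 against nonsense siRNA (SE 0.0548, limma adjusted p = 4.34e-09), and a two-sided exact permutation test against all 6 other arrays gave p = 0.0119, the smallest it can give. The hepatocyte markers fitted a liver line, but were not used to tell Hep3B from other such lines. Of these markers 8 of 8 lay above the median gene of 7.31, with AFP at 12.39. Of the leukocyte markers 1 of 9 lay above it (CD68 at 8.01), with PTPRC at 5.99. The 9 leukocyte markers averaged 6.64 to 6.74 after YAP siRNA, 6.63 to 6.68 after nonsense siRNA and 6.67 to 6.76 in untreated cells. YAP siRNA replicate 3, nonsense siRNA replicate 2 and untreated replicate 3 had been found to stand apart in earlier work on these arrays. In each group that array had the highest mean over 23 genes that mark other organs (6.65, 6.62 and 6.65). The other arrays had 6.58 and 6.54 after YAP siRNA, 6.56 and 6.56 after nonsense siRNA and 6.62 and 6.64 in untreated cells. Untreated replicate 3 thus hardly stood apart by this measure. Calls that change without these 3 arrays are given beside each result.

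None of the 39 genes passed in any comparison, at a limma adjusted p under 0.05 over all genes. The share of all genes that passed was 4.53% for YAP siRNA against nonsense siRNA, 3.09% for YAP siRNA against untreated cells, 0.614% for nonsense siRNA against untreated cells and 1.09% for both siRNA groups against untreated cells. The smallest adjusted p of the 39 was 0.0805 (MX2), 0.0744 (IFIT1), 0.0822 (EIF2AK2) and 0.140 (SAMD9) in these comparisons. At an unadjusted p under 0.05, 7, 5, 6 and 7 of the 39 were counted, or 17.9%, 12.8%, 15.4% and 17.9%. Of all genes, 15.8%, 15.8%, 19.5% and 18.6% were, so that the shares among the 39 lay near or below the background.

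The differences were also small. Against untreated cells the 39 differences ran from -0.12 to 0.27 after YAP siRNA and from -0.19 to 0.28 after nonsense siRNA on the log2 scale. Every upper 95% confidence bound was below 0.5 in all 4 comparisons, and the highest was 0.44, for USP18 after YAP siRNA, which is 1.36-fold. The median difference was 0.00 after YAP siRNA and -0.04 after nonsense siRNA, beside -0.01 and -0.02 over all genes. Array folds understate changes of dim genes, so that these bounds hold for the signal and may be narrower than those for the transcript.

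**Figure D1:**
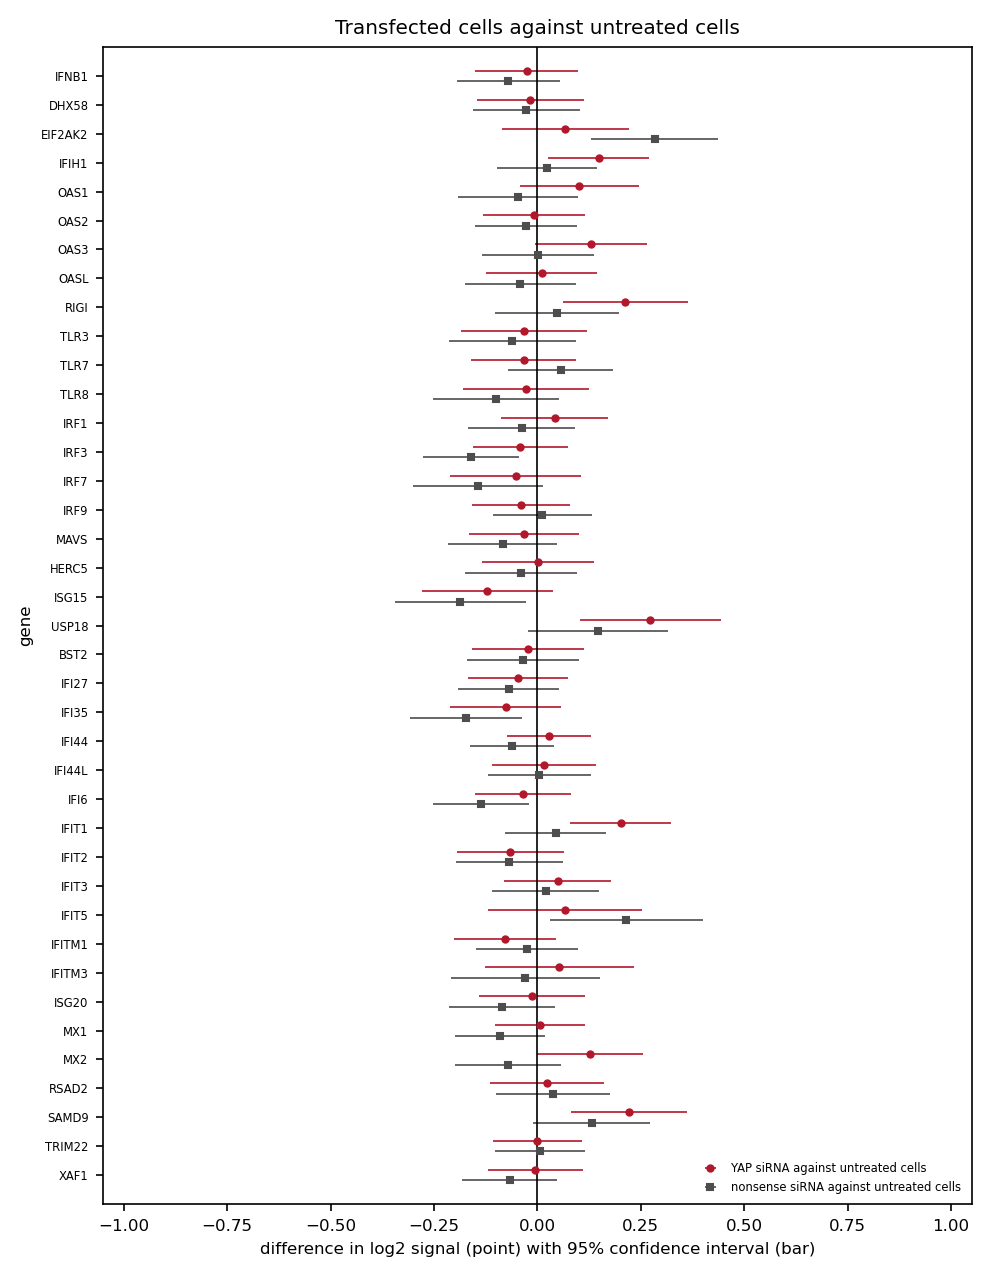
Differences in log2 signal against untreated cells (x axis) for the 39 genes (y axis, grouped by role). Red circles are YAP siRNA and grey squares nonsense siRNA, and bars are 95% confidence intervals of the limma fit on 9 arrays, 3 per group; no upper bound reaches 0.5, and USP18 (0.27 after YAP siRNA) and EIF2AK2 (0.28 after nonsense siRNA) lie farthest right.

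Most of these genes gave dim signals. Their means over the 9 arrays ran from 5.90 to 8.82 with a median of 6.64, and 30 of 39 lay below the median gene. The 23 genes of other organs (rhodopsin, protamines, insulin and the like) spanned 5.90 to 7.28 with a median of 6.71. Signals of different probe sets depend on their probes as well as on the transcript, no detection calls were used here, and whether the dim genes were transcribed at all was not tested. The 9 that lay above the median gene were MAVS (8.82), MX2 (8.55), IRF3 (8.39), EIF2AK2 (8.11), USP18 (7.75), IFI6 (7.68), ISG20 (7.48), IRF9 (7.47) and IRF7 (7.33). Across all 9 arrays the highest and lowest values of a gene were 0.24 apart at the median of the 39, from 0.10 for TRIM22 to 0.56 for USP18, beside 0.25 over all genes.

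**Figure D2:**
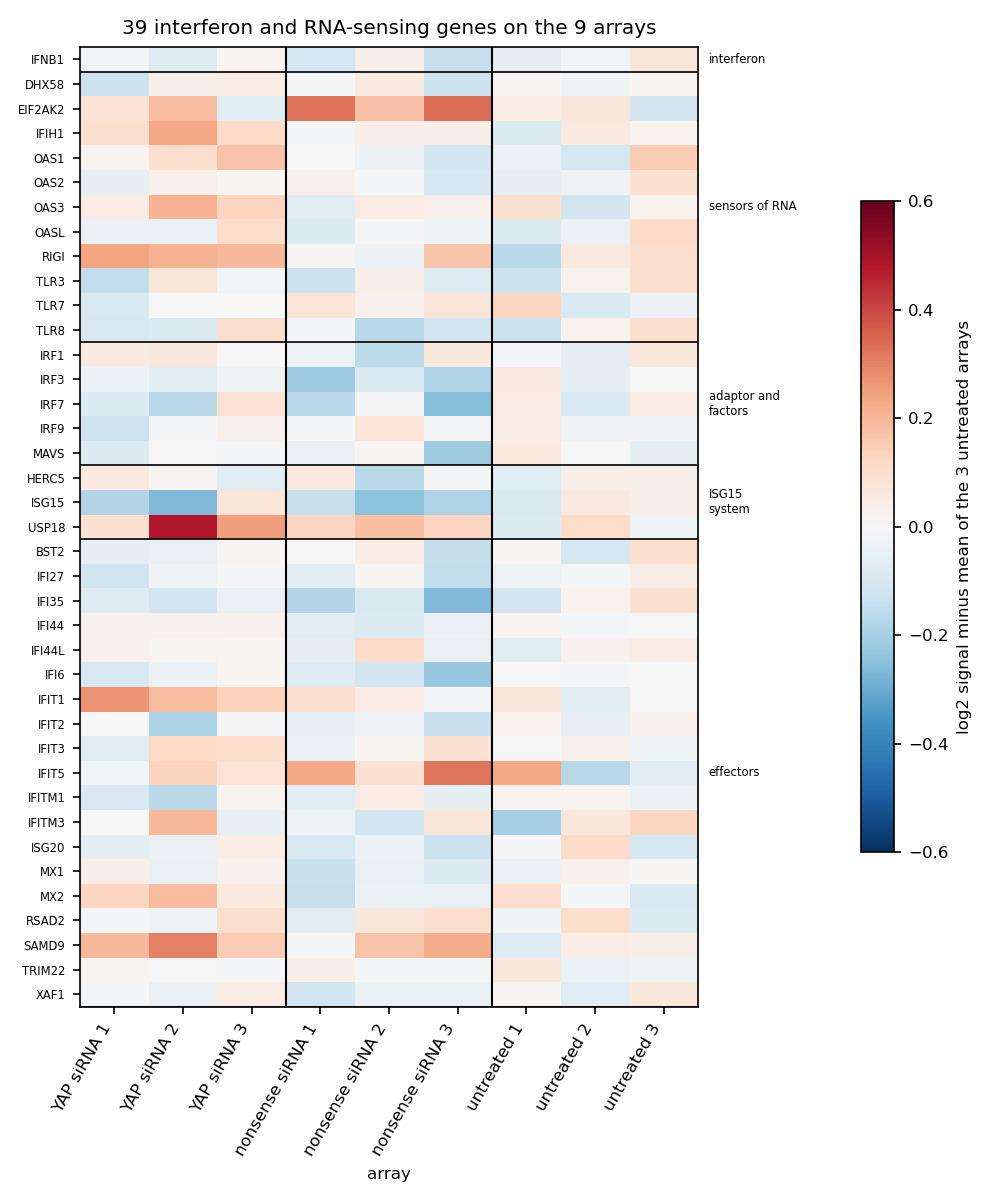
Heat map of the 39 genes (rows, grouped by role) on the 9 arrays (columns), coloured by log2 signal minus the mean of the 3 untreated arrays. Most cells are pale; EIF2AK2 and IFIT5 are red on the nonsense siRNA arrays and USP18, SAMD9, RIGI and IFIT1 are red on the YAP siRNA arrays, with differences of 0.20 to 0.28 in their groups.

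IFNB1, the gene for interferon beta, is the first product of RNA sensing in most cells. Its log2 signals were 6.07, 6.01 and 6.10 after YAP siRNA, 5.98, 6.12 and 5.95 after nonsense siRNA and 6.03, 6.07 and 6.16 in untreated cells. The 3 groups overlapped. The difference against untreated cells was -0.03 after YAP siRNA (95% interval -0.15 to 0.10) and -0.07 after nonsense siRNA (-0.19 to 0.05), and both siRNA groups together gave -0.05 (adjusted p = 0.622). Of 14 other interferon genes (type I, II and III), 12 were measured and 0 passed in any comparison, with medians of -0.01 after YAP siRNA and -0.06 after nonsense siRNA against untreated cells.

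Among the sensors, EIF2AK2 encodes PKR, the kinase that duplex RNA activates to stop translation, and it differed most after nonsense siRNA. Its log2 signals were 8.08, 8.18 and 7.92 after YAP siRNA, 8.32, 8.17 and 8.33 after nonsense siRNA and 8.04, 8.06 and 7.88 in untreated cells. All nonsense siRNA arrays lay above all untreated arrays, while the YAP siRNA arrays overlapped both. The difference of nonsense siRNA against untreated cells was 0.28 (SE 0.0721, 95% interval 0.13 to 0.44, 1.22-fold, adjusted p = 0.0822). YAP siRNA against nonsense siRNA gave -0.22 (adjusted p = 0.120), and YAP siRNA against untreated cells gave 0.07 (adjusted p = 0.696). Without the 3 arrays that stand apart EIF2AK2 passed for nonsense siRNA against untreated cells (0.28, adjusted p = 0.00679), for YAP siRNA against nonsense siRNA (-0.20, adjusted p = 0.0489) and for both siRNA groups against untreated cells (0.18, adjusted p = 0.0292). Without nonsense siRNA replicate 2 alone it passed in the comparison with untreated cells (0.34, adjusted p = 0.0145) and in that of YAP siRNA with nonsense siRNA (-0.27, adjusted p = 0.0397). Without YAP siRNA replicate 3 it passed for nonsense siRNA against untreated cells (adjusted p = 0.0482), and the adjusted p of that comparison ran from 0.00519 to 0.326 over 20 alternatives.

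RIGI encodes RIG-I, which binds short duplex RNA with a triphosphate end. Its log2 signals were 7.06, 7.03 and 7.02 after YAP siRNA, 6.83, 6.79 and 6.99 after nonsense siRNA and 6.66, 6.88 and 6.93 in untreated cells. The YAP siRNA arrays lay above all other arrays, by little. The difference was 0.21 against untreated cells (adjusted p = 0.137) and 0.17 against nonsense siRNA (adjusted p = 0.257), and nonsense siRNA against untreated cells gave 0.05 (adjusted p = 0.723). Without the 3 arrays RIGI passed for YAP siRNA against untreated cells (0.28, adjusted p = 0.0342; 0.0292 to 0.438 over 19 alternatives) and for both siRNA groups against untreated cells (0.21, adjusted p = 0.0476).

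IFIH1 encodes MDA5, which binds long duplex RNA. Its log2 signals were 6.24, 6.37 and 6.26 after YAP siRNA, 6.13, 6.18 and 6.18 after nonsense siRNA and 6.06, 6.20 and 6.16 in untreated cells. The YAP siRNA arrays again lay above the others, with a difference of 0.15 against untreated cells (adjusted p = 0.210) and 0.13 against nonsense siRNA (adjusted p = 0.296). OAS1, one of the synthetases whose oligoadenylates switch on RNase L, had log2 signals of 6.65, 6.73 and 6.80 after YAP siRNA, 6.63, 6.59 and 6.51 after nonsense siRNA and 6.58, 6.52 and 6.78 in untreated cells. Its YAP siRNA arrays lay above the nonsense siRNA arrays by 0.15 (adjusted p = 0.298) and overlapped the untreated arrays.

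TLR3, the endosomal receptor for duplex RNA, had log2 signals of 5.91, 6.13 and 6.04 after YAP siRNA, 5.93, 6.09 and 5.98 after nonsense siRNA and 5.93, 6.08 and 6.16 in untreated cells. These overlapped, and the differences against untreated cells were -0.03 (adjusted p = 0.871) and -0.06 (adjusted p = 0.645). TLR7 and TLR8 encode the endosomal receptors for single-stranded RNA and are mostly genes of immune cells. For these, OAS2, OAS3, OASL and DHX58, which encodes the RIG-I relative LGP2, differences against untreated cells ran from -0.03 to 0.13 after YAP siRNA and from -0.10 to 0.06 after nonsense siRNA.

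Of the 5 adaptor and factor genes 4 had signals above the median gene. MAVS, the mitochondrial adaptor of RIG-I and MDA5, had log2 signals of 8.77, 8.85 and 8.84 after YAP siRNA, 8.81, 8.87 and 8.64 after nonsense siRNA and 8.91, 8.85 and 8.80 in untreated cells, with no separation between groups. IRF3, the factor that MAVS signalling activates without new transcription, had 8.42, 8.39 and 8.43 after YAP siRNA, 8.24, 8.37 and 8.27 after nonsense siRNA and 8.51, 8.40 and 8.46 in untreated cells. All nonsense siRNA arrays lay below all others. The difference of nonsense siRNA against untreated cells was -0.16 (adjusted p = 0.145) and that of YAP siRNA against nonsense siRNA 0.12 (adjusted p = 0.293). IRF3 passed as lower after nonsense siRNA than in untreated cells without the 3 arrays (-0.20, adjusted p = 0.0377) and without nonsense siRNA replicate 2 (-0.20, adjusted p = 0.0441).

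IRF7, which interferon induces and which amplifies the response, had log2 signals of 7.31, 7.23 and 7.48 after YAP siRNA, 7.23, 7.38 and 7.14 after nonsense siRNA and 7.44, 7.30 and 7.44 in untreated cells. IRF9, the DNA-binding part of the factor complex that interferon activates, had 7.35, 7.46 and 7.50 after YAP siRNA, 7.46, 7.55 and 7.46 after nonsense siRNA and 7.52, 7.45 and 7.45 in untreated cells. Both overlapped between groups, with differences against untreated cells of -0.05 and -0.04 after YAP siRNA. IRF1, a factor induced by interferon gamma and other stimuli, gave 0.04 after YAP siRNA and -0.04 after nonsense siRNA.

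In the ISG15 system the differences of both siRNA groups against untreated cells were below 0 for the modifier and above 0 for the enzyme that removes it, and neither gene passed. ISG15, a ubiquitin-like modifier that interferon induces, had log2 signals of 7.22, 7.13 and 7.47 after YAP siRNA, 7.26, 7.15 and 7.21 after nonsense siRNA and 7.31, 7.45 and 7.43 in untreated cells. All nonsense siRNA arrays lay below the untreated ones (-0.19, adjusted p = 0.199), and YAP siRNA gave -0.12 (adjusted p = 0.459). Without YAP siRNA replicate 3 ISG15 passed as lower in both siRNA groups together than in untreated cells (-0.20, adjusted p = 0.0463).

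USP18, the protease that takes ISG15 off its substrates and that dampens interferon receptor signalling, had log2 signals of 7.70, 8.09 and 7.86 after YAP siRNA, 7.74, 7.79 and 7.74 after nonsense siRNA and 7.53, 7.72 and 7.58 in untreated cells. All nonsense siRNA arrays lay above all untreated arrays, while 1 YAP siRNA array lay within the range of the untreated ones. The difference was 0.27 after YAP siRNA (SE 0.0798, 95% interval 0.10 to 0.44, adjusted p = 0.0849) and 0.15 after nonsense siRNA (adjusted p = 0.318). USP18 passed for YAP siRNA against untreated cells without YAP siRNA replicate 1 (0.36, adjusted p = 0.0307; 0.0307 to 0.387 over 20 alternatives). HERC5, the main ligase for ISG15 in human cells, gave 0.00 after YAP siRNA and -0.04 after nonsense siRNA.

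Of the effectors, IFIT1 and SAMD9 differed most after YAP siRNA. IFIT1, which binds viral RNA caps and is among the genes most strongly induced by interferon, had log2 signals of 6.09, 6.01 and 5.96 after YAP siRNA, 5.92, 5.87 and 5.81 after nonsense siRNA and 5.89, 5.75 and 5.82 in untreated cells. The YAP siRNA arrays lay above all others, by little. The difference was 0.20 against untreated cells (SE 0.0570, 95% interval 0.08 to 0.32, 1.15-fold, adjusted p = 0.0744) and 0.16 against nonsense siRNA (adjusted p = 0.160). Nonsense siRNA against untreated cells gave 0.04 (adjusted p = 0.676). IFIT1 passed for YAP siRNA against untreated cells without the 3 arrays (0.23, adjusted p = 0.0397) and without YAP siRNA replicate 3 (0.23, adjusted p = 0.0490), and its adjusted p ran from 0.00649 to 0.338 over 19 alternatives.

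SAMD9, which restricts poxviruses, had log2 signals of 6.26, 6.37 and 6.22 after YAP siRNA, 6.06, 6.24 and 6.29 after nonsense siRNA and 5.99, 6.11 and 6.10 in untreated cells. Its YAP siRNA arrays lay above all untreated arrays (0.22, adjusted p = 0.0921) and overlapped the nonsense siRNA arrays, which gave 0.13 against untreated cells (adjusted p = 0.286). Without the 3 arrays SAMD9 passed for YAP siRNA against untreated cells (0.27, adjusted p = 0.0390; 0.0387 to 0.381 over 19 alternatives).

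MX2, a dynamin-like GTPase that blocks retroviral entry into the nucleus, had log2 signals of 8.66, 8.72 and 8.59 after YAP siRNA, 8.39, 8.49 and 8.49 after nonsense siRNA and 8.63, 8.52 and 8.44 in untreated cells. Its YAP siRNA arrays lay above the nonsense siRNA arrays by 0.20 (SE 0.0604, 95% interval 0.07 to 0.33, adjusted p = 0.0805) and overlapped the untreated arrays (0.13, adjusted p = 0.320). Without the 3 arrays MX2 passed against nonsense siRNA (0.25, adjusted p = 0.0254; 0.00261 to 0.342 over 20 alternatives). Its relative MX1, the classical interferon-induced GTPase against influenza virus, had 6.89, 6.81 and 6.88 after YAP siRNA, 6.72, 6.81 and 6.77 after nonsense siRNA and 6.82, 6.88 and 6.86 in untreated cells. MX1 gave 0.01 after YAP siRNA and -0.09 after nonsense siRNA against untreated cells (adjusted p = 0.969 and 0.336).

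IFI6, a membrane protein of the endoplasmic reticulum that hinders flaviviruses, had log2 signals of 7.64, 7.70 and 7.75 after YAP siRNA, 7.66, 7.62 and 7.51 after nonsense siRNA and 7.74, 7.73 and 7.74 in untreated cells. IFI35, an interferon-induced leucine zipper protein, had 6.96, 6.92 and 6.99 after YAP siRNA, 6.86, 6.95 and 6.77 after nonsense siRNA and 6.92, 7.06 and 7.13 in untreated cells. Nonsense siRNA against untreated cells gave -0.14 for IFI6 (adjusted p = 0.199), with no overlap, and -0.17 for IFI35 (adjusted p = 0.170), with overlap. BST2, also called tetherin since it holds budding virions at the cell surface, had 6.25, 6.26 and 6.32 after YAP siRNA, 6.30, 6.35 and 6.16 after nonsense siRNA and 6.31, 6.20 and 6.40 in untreated cells. IFITM3, which keeps viruses from fusing with endosomes, had 7.28, 7.48 and 7.23 after YAP siRNA, 7.25, 7.16 and 7.35 after nonsense siRNA and 7.08, 7.35 and 7.41 in untreated cells. Neither gene separated the groups.

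The other 11 effectors were IFIT2, IFIT3, IFIT5, ISG20, IFI27, IFI44, IFI44L, RSAD2, XAF1, IFITM1 and TRIM22. Their differences against untreated cells ran from -0.08 to 0.07 after YAP siRNA and from -0.08 to 0.22 after nonsense siRNA, with IFIT5 highest (adjusted p = 0.203). RSAD2, which encodes the antiviral enzyme viperin, gave 0.02 after YAP siRNA and 0.04 after nonsense siRNA. IFI27, a sensitive marker of interferon exposure, gave -0.05 and -0.07.

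**Figure D3:**
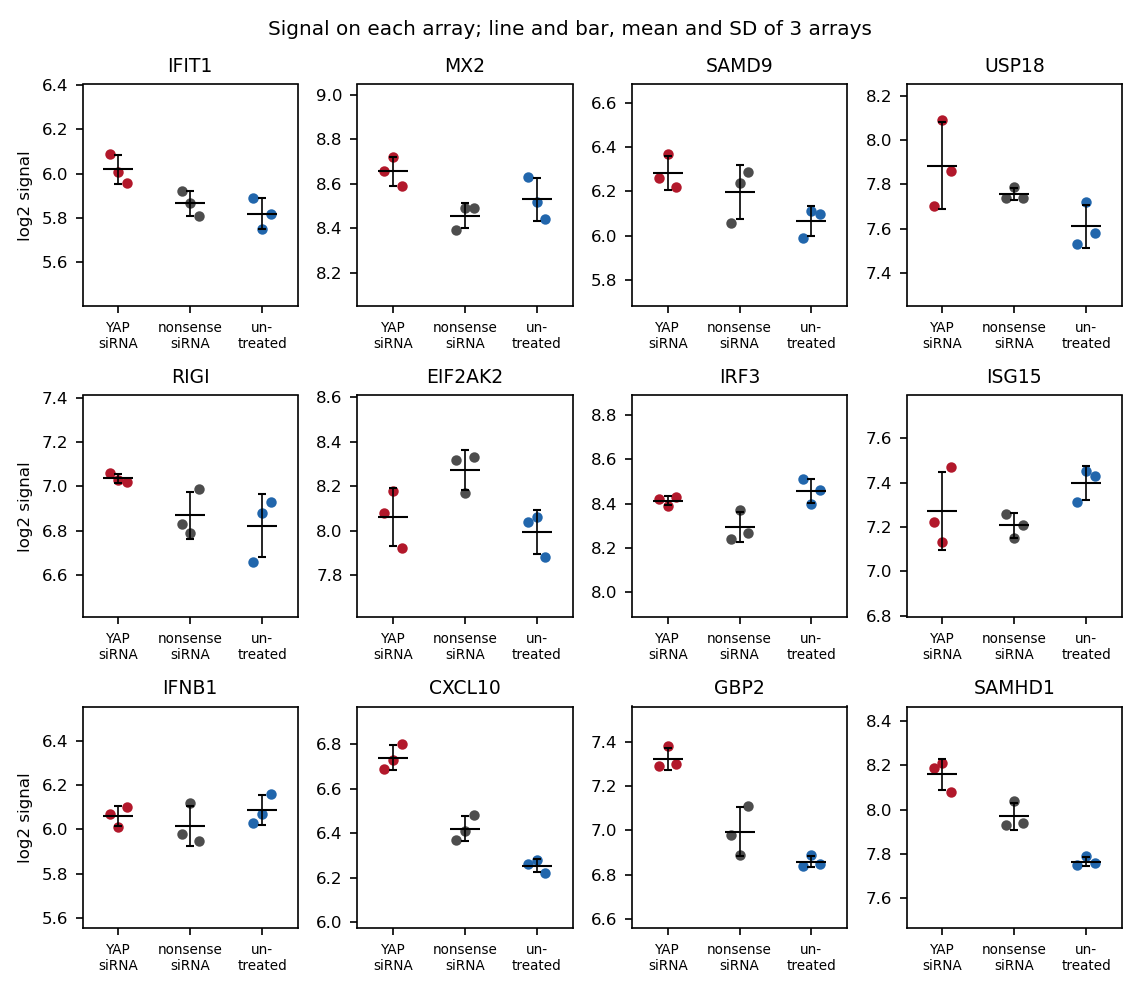
Log2 signal (y axis, equal span in each panel) of 12 genes on each array for YAP siRNA (red), nonsense siRNA (grey) and untreated cells (blue); the line is the mean and the bar the SD of 3 arrays. The YAP siRNA arrays of CXCL10 (6.69 to 6.80) and GBP2 (7.29 to 7.38) lie well above the other groups, while the groups of IFNB1 overlap.

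For some of the 39 genes the arrays of 2 groups did not overlap, and whether this was more frequent than over all genes was not tested. All 3 YAP siRNA arrays lay above all 3 nonsense siRNA arrays in 9 of the 39 genes (IFIT1, MX1, MX2, OAS1, IFI44, IFIH1, RIGI, IRF3 and XAF1; background 11.5% of all genes) and below them in 1 (TLR7; background 8.71%). Against untreated cells the YAP siRNA arrays were all higher in 5 genes (IFIT1, SAMD9, RIGI, IFIH1 and IFI44; background 10.2%) and all lower in 0 (background 10.3%). The nonsense siRNA arrays were all higher than untreated in 2 genes (EIF2AK2 and USP18; background 8.9%) and all lower in 5 (IRF3, IFI6, ISG15, MX1 and IFI44; background 13.8%). All 6 siRNA arrays together lay above the untreated arrays in 0 genes (background 3.01%) and below them in 0 (background 3.47%).

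Most differences between YAP siRNA and nonsense siRNA were above 0, although no gene of the 39 passed. Of the 39 differences 32 were above 0 (82.1%; 29 without the 3 arrays that stand apart), beside 55.7% of all genes, 16 of 23 genes of other organs and 7 of 9 leukocyte markers, and the median was 0.06 beside 0.01 over all genes. The mean of the 39 signals was 6.81, 6.85 and 6.87 on the YAP siRNA arrays, 6.79, 6.81 and 6.78 on the nonsense siRNA arrays and 6.80, 6.81 and 6.84 on the untreated arrays, so that all 9 arrays lay between 6.78 and 6.87. The mean signal of 192 small nucleolar and Cajal body RNA genes also differed between arrays, at 6.99, 6.95 and 6.89 after YAP siRNA, 7.05, 6.98 and 7.01 after nonsense siRNA and 7.00, 6.99 and 6.89 in untreated cells. With that mean as a covariate 21 of 39 differences were above 0 and the median was 0.005, beside -0.009 over all genes. The covariate itself tended to be lower after YAP siRNA than after nonsense siRNA, so that it can also take away part of the difference between these groups. Whether small RNA signal accounts for the shift was not tested. Against untreated cells 19 of 39 were above 0 after YAP siRNA and 14 after nonsense siRNA.

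**Figure D4:**
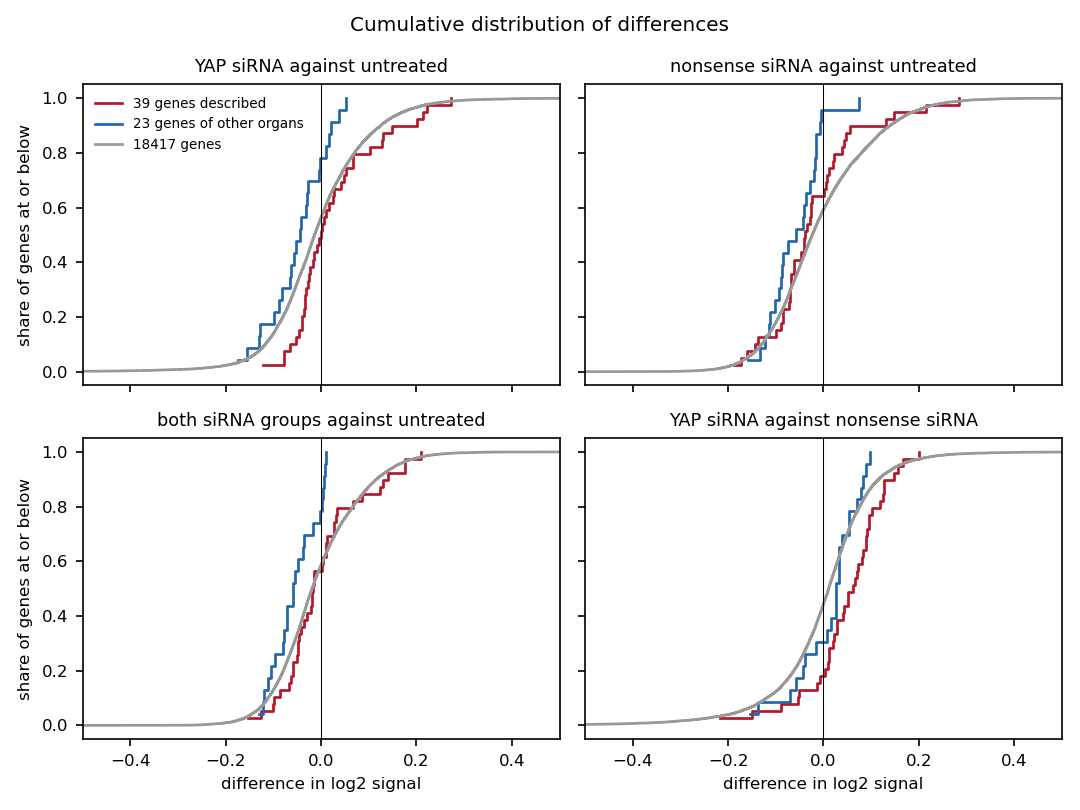
Cumulative share (y axis) of differences in log2 signal (x axis) for the 39 genes (red), 23 genes of other organs (blue) and 18417 genes (grey), in 4 comparisons, with differences beyond 0.5 in size off the axis. The red curve lies right of the grey one for YAP siRNA against nonsense siRNA (32 of 39 above 0) and close to it for nonsense siRNA against untreated cells (14 of 39 above 0).

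Genes around the 39 in the same pathway were counted from lists. Of 16 genes for interferon receptors, their kinases and regulators, 15 were measured and 0 passed in any comparison. Against untreated cells the smallest adjusted p of these 15 was 0.165 for YAP siRNA, 0.0776 for nonsense siRNA and 0.0697 for both siRNA groups. For YAP siRNA against nonsense siRNA it was 0.195. IFNAR1 and IFNAR2, the subunits of the receptor for type I interferon, differed from untreated cells by 0.13 and 0.18 after YAP siRNA and by 0.20 and 0.17 after nonsense siRNA (adjusted p of 0.153 or more). Of 13 genes of antigen presentation by MHC class I, which interferon also induces, 8 were measured and 0 passed.

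Of 26 genes for other parts of nucleic acid sensing, 24 were measured, and 1 rose and 1 fell after YAP siRNA against nonsense siRNA, where 1.92% of all genes rose and 2.61% fell. IKBKE, a kinase that phosphorylates IRF3 and IRF7, had log2 signals of 7.64, 7.66 and 7.57 after YAP siRNA, against 7.34, 7.48 and 7.32 after nonsense siRNA (0.24, adjusted p = 0.0205), and 7.46, 7.51 and 7.45 in untreated cells. CGAS, the sensor of cytosolic DNA, had 6.57, 6.53 and 6.43 after YAP siRNA, against 6.76, 6.76 and 6.72 after nonsense siRNA (-0.23, adjusted p = 0.0262), and 6.72, 6.58 and 6.64 in untreated cells. Each passed in 5 of 9 fits that left out 1 array. IKBKE was lost without YAP siRNA replicate 1 (0.0822) or 2 (0.0925) or nonsense siRNA replicate 1 (0.118) or 3 (0.107), and CGAS without YAP siRNA replicate 2 (0.0681) or 3 (0.114), nonsense siRNA replicate 1 (0.115) or 3 (0.0634), or the 3 arrays that stand apart (0.0919). With the mean signal of small nucleolar and Cajal body RNA genes as a covariate both were lost (IKBKE 0.0713, CGAS 0.187). Against untreated cells neither passed.

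A list of 46 other interferon-stimulated genes held most of the genes that passed. Of 44 measured, 5 rose and 0 fell after YAP siRNA against untreated cells, where 1.63% of all genes rose, and 3 rose and 0 fell against nonsense siRNA, where 1.92% of all genes rose. After nonsense siRNA against untreated cells 0 passed, with 13 of 44 at an unadjusted p under 0.05 (29.5%, beside 19.5% of all genes; 9 higher and 4 lower), and for both siRNA groups together 3 rose, where 0.7% of all genes rose. The median difference of the 44 was 0.05 after YAP siRNA and 0.01 after nonsense siRNA against untreated cells, beside -0.01 and -0.02 over all genes.

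CXCL10 encodes a chemokine that draws T cells and is induced by interferons as well as by NF-kappa-B. Its log2 signals were 6.69, 6.73 and 6.80 after YAP siRNA, 6.37, 6.41 and 6.48 after nonsense siRNA and 6.26, 6.28 and 6.22 in untreated cells. The 3 groups did not overlap. The mean of CXCL10 over the 9 arrays was 6.47 and that of HERC6, described below, 6.31. Both lay below the median of the genes of other organs (6.71), so that the limits given for dim genes hold here too. CXCL10 rose by 0.48 after YAP siRNA against untreated cells (SE 0.0529, 95% interval 0.37 to 0.60, 1.40-fold, adjusted p = 0.000111) and by 0.32 against nonsense siRNA (adjusted p = 0.00194). Nonsense siRNA against untreated cells gave 0.17 (adjusted p = 0.133). It passed in both YAP siRNA comparisons in 9 of 9 fits that left out 1 array.

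GBP2, a guanylate-binding GTPase that interferon gamma induces strongly, had log2 signals of 7.29, 7.38 and 7.30 after YAP siRNA, 6.98, 6.89 and 7.11 after nonsense siRNA and 6.84, 6.89 and 6.85 in untreated cells. It rose by 0.46 against untreated cells (1.38-fold, adjusted p = 0.00042) and by 0.33 against nonsense siRNA (adjusted p = 0.00412), and nonsense siRNA against untreated cells gave 0.14 (adjusted p = 0.232). SAMHD1, which breaks down deoxynucleotides and so limits retroviruses, had 8.19, 8.21 and 8.08 after YAP siRNA, 7.93, 8.04 and 7.94 after nonsense siRNA and 7.75, 7.79 and 7.76 in untreated cells. It rose by 0.40 against untreated cells (1.32-fold, adjusted p = 0.000665). Against nonsense siRNA it gave 0.19 (adjusted p = 0.0611), and nonsense siRNA against untreated cells gave 0.21 (adjusted p = 0.0896), with no overlap in either. SAMHD1 passed against nonsense siRNA in 6 of 20 alternatives, among them the fits without the 3 arrays that stand apart (0.26, adjusted p = 0.00829), without nonsense siRNA replicate 2 (0.0282) and without YAP siRNA replicate 3 (0.0412), with adjusted p from 0.000972 to 0.263. The window of SAMHD1 held no response element core.

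For both siRNA groups against untreated cells CXCL10 rose by 0.33 (adjusted p = 0.00544), SAMHD1 by 0.30 (adjusted p = 0.00834) and GBP2 by 0.30 (adjusted p = 0.0146). SAMHD1 was lost there without untreated replicate 1 (0.0684) and GBP2 without untreated replicate 1 (0.0989), 2 (0.0722) or 3 (0.0531).

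The remaining calls were less steady. PARP9, a partner of the ubiquitin ligase DTX3L in interferon signalling, rose by 0.28 after YAP siRNA against untreated cells (adjusted p = 0.0341), with signals of 7.13, 7.22 and 7.02 against 6.96, 6.83 and 6.72. After nonsense siRNA its signals were 7.00, 6.88 and 7.00. YAP siRNA against nonsense siRNA gave 0.16 (adjusted p = 0.256) and passed in 1 of 19 alternatives. The call against untreated cells was lost without YAP siRNA replicate 1 (0.126) or 2 (0.198), nonsense siRNA replicate 1 (0.0512) or untreated replicate 2 (0.111) or 3 (0.130). For both siRNA groups against untreated cells PARP9 did not pass, but it did without the 3 arrays that stand apart (0.19, adjusted p = 0.0318; 0.0153 to 0.323 over 18 alternatives). HERC6, a relative of HERC5, rose by 0.23 (adjusted p = 0.0452), with 6.39, 6.51 and 6.44 after YAP siRNA against 6.29, 6.25 and 6.12 in untreated cells. After nonsense siRNA its signals were 6.27, 6.21 and 6.31. YAP siRNA against nonsense siRNA gave 0.18 (adjusted p = 0.103) and passed in 1 of 19 alternatives. Against untreated cells HERC6 passed in 1 of 9 fits that left out 1 array, the one without nonsense siRNA replicate 2, with adjusted p up to 0.229 in the others. HERC6 was also lost without the 3 arrays that stand apart (0.19, adjusted p = 0.0686), with only the arrays compared (0.0542) and with the replicate number as a block (0.0743). SHISA5, which encodes a membrane protein of the endoplasmic reticulum, rose by 0.26 after YAP siRNA against nonsense siRNA (adjusted p = 0.00943), with 9.15, 9.19 and 9.24 against 8.90, 8.93 and 8.96. This call was lost without nonsense siRNA replicate 1 (0.0612) and with the covariate for small RNA genes (0.19, adjusted p = 0.101). The untreated arrays, at 8.99, 9.03 and 9.13, lay between those of the siRNA groups. Against untreated cells SHISA5 did not pass after either siRNA. Over 20 alternatives that difference ran from 0.1155 to 0.185 after YAP siRNA and from -0.1563 to -0.0647 after nonsense siRNA, and 0 passed.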

How the data were processed

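Per the labels' protocols, RNA of the 9 samples was isolated with Nucleospin columns, and biotinylated cRNA was hybridised to Affymetrix gene arrays. Titles of the samples start with HUH; Hep3B was taken from the cell line field and the descriptions. The deposited values were taken as log2 signals from their range; their background correction, summarisation and normalization were not given in the sources used here. They were not rescaled, and precision is limited by the number of arrays.

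Probe sets were named from the supplied array annotation: of 33297, 19460 had 1 gene, 1754 several and 12083 were not listed. For 769 of 18417 genes the brightest of several probe sets was used. Each of the 39 genes had 1 such probe set.

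A linear model with 3 group means was fitted over the 9 arrays (limma 3.58.1 under R 4.3.3, with lmFit, contrasts.fit and eBayes). Benjamini-Hochberg adjustment ran over all genes, and passing means a limma adjusted p under 0.05, two-sided. The comparison of both siRNA groups sets the mean of their group means against untreated cells. The fit was tested on simulated data.

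The genes and lists were chosen with earlier results of these data known. Values on every array are given for the 4 genes with the smallest p in each comparison and for IFNB1, IFIH1, RIGI, TLR3, EIF2AK2, MAVS, IRF3, IRF7, IRF9, IFIT1, ISG15, MX1, OAS1, BST2 and IFITM3. They are also given for CXCL10, for YAP1 and for list genes that passed, at most 4 per list and comparison by smallest p. HERC6, the fifth gene of its list in its comparison, and the genes given by their differences alone were added after their values were seen. Promoter windows were searched with Python 3.11.15, and figures were drawn with matplotlib 3.10.9 and pandas 2.3.3.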

Additional observations from a re-analysis of the deposited data

How the results depend on the processing

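Of 2144 single-gene values recomputed, 46 came to pass, 33 ceased to pass and 2065 kept their side of the threshold. The sign changed in 70, with adjusted p of 0.563 or more. Counts below are out of 39 genes and run in the order YAP siRNA against nonsense siRNA, YAP siRNA against untreated cells, nonsense siRNA against untreated cells and both siRNA groups against untreated cells, where 0, 0, 0 and 0 passed. Array weights gave 5, 3, 4 and 2 and the fit without the 3 arrays that stand apart 2, 3, 2 and 2. The cause was not tested. Shares of all genes that pass under changed settings are not given here, except at an unadjusted p. The other counts therefore have no background beside them. An adjusted p under 0.1 gave 1, 3, 1 and 0. An unadjusted p under 0.05 gave 7, 5, 6 and 7, beside 15.8%, 15.8%, 19.5% and 18.6% of all genes. Quantile normalization gave 1 (MX2, adjusted p = 0.0380) in the first comparison. In the second, trend and robust variances gave 1 (IFIT1, 0.0278) and the small RNA covariate 1 (IFIT1, 0.0376). Leaving out 1 array gave 0 to 1, 0 to 1, 0 to 2 and 0 to 1. Median centring, the mean of a gene's probe sets, all probe sets, a filter on dim genes and, for the pairwise comparisons, only the arrays compared gave 0.

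Among the other interferon-stimulated genes, 3, 5, 0 and 3 of 44 passed. An unadjusted p under 0.05 gave 10, 15, 13 and 14, beside 15.8%, 15.8%, 19.5% and 18.6% of all genes. For the other changed settings the shares of all genes are not given here, so those counts have no background beside them. Array weights gave 11, 10, 5 and 10. Leaving out 1 array gave 2 to 5, 3 to 7, 0 to 5 and 1 to 7, each highest without nonsense siRNA replicate 2. Quantile normalization gave 5 in the first comparison. Without the 3 arrays 4 passed in the third and 8 in the fourth, and an adjusted p under 0.1 gave 1 in the third. The filter on dim genes, which removes CXCL10 and GBP2 from the test, gave 2 in the second and 1 in the fourth.

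The labels do not say that equal replicate numbers mark paired samples. Deviations of same-numbered arrays from their group means correlated at 0.235, -0.298 and -0.337 for YAP and nonsense siRNA, 0.041, 0.251 and 0.344 for YAP siRNA and untreated cells and 0.067, -0.173 and 0.034 for nonsense siRNA and untreated cells, so the numbers were not taken to pair the samples. The replicate block gave 1 of 39 in the second comparison (USP18, adjusted p = 0.0362) and 0 in the others.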
